A study of Mus musculus with 2 samples.

Results

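Activins and myostatin are ligands of the TGF-beta family, and follistatins are separate secreted glycoproteins, some of which bind and inhibit them. They are studied in skeletal muscle because they set muscle size and the behaviour of muscle progenitors. The 9 genes described here were taken by name, out of 27998 genes measured: 4 ligand genes (Inhba and Inhbb, which encode the activin subunits beta A and beta B, Mstn, the myostatin gene, and Gdf10, also known as BMP3b), 3 follistatin family genes (Fst, Fstl1 and Fstl3) and 2 receptor genes (Acvr1b, the type I receptor ALK4, and Acvr2a, a type II receptor). Their unique molecular identifier (UMI) counts were summed over the cells of each annotated cell type in 2 single-cell libraries of mouse tibialis anterior muscle, 1 collected at day 2 and 1 at day 7 after injury with notexin, a venom phospholipase that destroys muscle fibres. The labels give both donors as C57Bl/6 females of 7 months without a transgene or drug. The cell annotation instead lists both as male, with ages of 4 and 7 months, and the libraries held 5 and 1 counts of Xist beside 160 and 150 CPM (counts of a gene per 1e6 counts of the same cells) of Y-linked genes at day 2 and day 7, which goes against the labelled sex.

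An activin or myostatin dimer binds a type II receptor, which then activates a type I receptor, and the signal is carried into the nucleus by SMAD2 and SMAD3. Follistatin wraps around the ligand and blocks it, and FSTL3 acts on the same ligands. FSTL1 shares only part of the follistatin fold and is known mainly as a secreted glycoprotein of mesenchymal cells. Myostatin is made chiefly by muscle fibres and restrains their growth. Fibro-adipogenic progenitors (FAPs), the mesenchymal cells between the fibres, are a known source of follistatin in regenerating muscle.

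The genes lie apart in the mouse genome (GRCm38): Inhba at chr13:16011851-16031621 on the plus strand, Inhbb at chr1:119415465-119422248 on the minus strand, Mstn at chr1:53061640-53068079 on the plus strand, Gdf10 at chr14:33923587-33937983 on the plus strand, Fst at chr13:114452290-114458951 on the minus strand, Fstl1 at chr16:37776873-37836514, Fstl3 at chr10:79777272-79782630, Acvr1b at chr15:101174067-101213684 and Acvr2a at chr2:48814109-48903269, the last 4 on the plus strand. RefSeq promoter sequence (GRCm38.p6) was at hand for 8 of the 9 genes, with none for Fst. The 250 bases before the start of Inhba (chr13:16011601-16011850, plus strand) and of Inhbb (chr1:119422249-119422498, minus strand) are shown because these genes encode the activin subunits and their counts lay in different cells. Capitals mark a TATA motif (TATAAA) in Inhba and a GC box (GGGCGG, here as its reverse complement) in Inhbb.
Inhba: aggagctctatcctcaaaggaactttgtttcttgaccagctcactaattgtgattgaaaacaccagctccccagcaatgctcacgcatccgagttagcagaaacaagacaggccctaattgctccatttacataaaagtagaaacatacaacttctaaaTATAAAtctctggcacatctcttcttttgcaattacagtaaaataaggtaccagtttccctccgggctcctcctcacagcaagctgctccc
Inhbb: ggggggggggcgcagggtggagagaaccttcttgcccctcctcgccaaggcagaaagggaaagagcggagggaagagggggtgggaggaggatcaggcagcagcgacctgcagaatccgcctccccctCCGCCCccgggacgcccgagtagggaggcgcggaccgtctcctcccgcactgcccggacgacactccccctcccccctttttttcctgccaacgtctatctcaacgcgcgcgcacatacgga

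The TATAAA of Inhba began at position -91 and the GC box of Inhbb at position -122, counted back from the start. The Inhba stretch was 43.2% G and C and the Inhbb stretch 68%. On both strands, TATAAA occurred in 12.4% and GGGCGG in 32.7% of 32851 promoters cut in the same way. Neither stretch held the AP-1 letters TGANTCA, the SMAD letters CAGAC or the E-box letters CANNTG, which occurred in 6.75%, 42.2% and 66.2% of promoters.

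After limits on genes, transcripts and mitochondrial share, 3208 cells remained at day 2 and 3221 at day 7, with a median of 9010 and 6557 counts per cell. The libraries shared 1 barcode of a kept cell. Of 25 annotated cell types, 12 at day 2 and 17 at day 7 held at least 50 cells, and in 26 of these 29 sums the marker list of the named type led by mean log2 level, each list taken relative to its own mean over the sums. The exceptions were capillary endothelial cells at day 2, led by erythroid genes, T cells at day 2, led by basophil and mast cell genes, and myoblasts at day 7, led by myofibre genes. By plain summed CPM the own list was highest in 22 of the 29, with endothelial markers above the own list in smooth muscle on both days, monocyte and macrophage markers above it in dendritic cells on both days, and FAP markers above it in muscle stem cells at day 7. With 1 library per day no test between days was possible, and every interval below is an exact 95% interval of counting error only: it holds neither the spread between mice nor the clustering of counts in single cells. Levels are CPM of the summed counts and are compared within a gene, never between genes. The level in barcodes with 1 to 100 counts, which hold free RNA and no cell, is given where it bears on a value. It is the make-up of free RNA itself, of which a cell holds only a part. SoupX, a correction for free RNA, removed 2.9% of the counts at day 2 and 2.6% at day 7 over all genes. Its values are given where they change whether a gene differed 2-fold between the days.

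The ligand and inhibitor genes divided by cell type. Gdf10 and Fst counts came almost wholly from FAPs on both days, Inhba counts from FAPs and myeloid cells at day 2 and mostly from FAPs at day 7, and Inhbb counts from vessel-wall cells at day 2 and from myogenic cells at day 7. FAPs made up 6.7% of kept cells at day 2 and 25% at day 7, and myogenic cells 0.69% and 9.69%. A share of counts thus follows the cells captured as well as the level per cell.

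**Figure D1:**
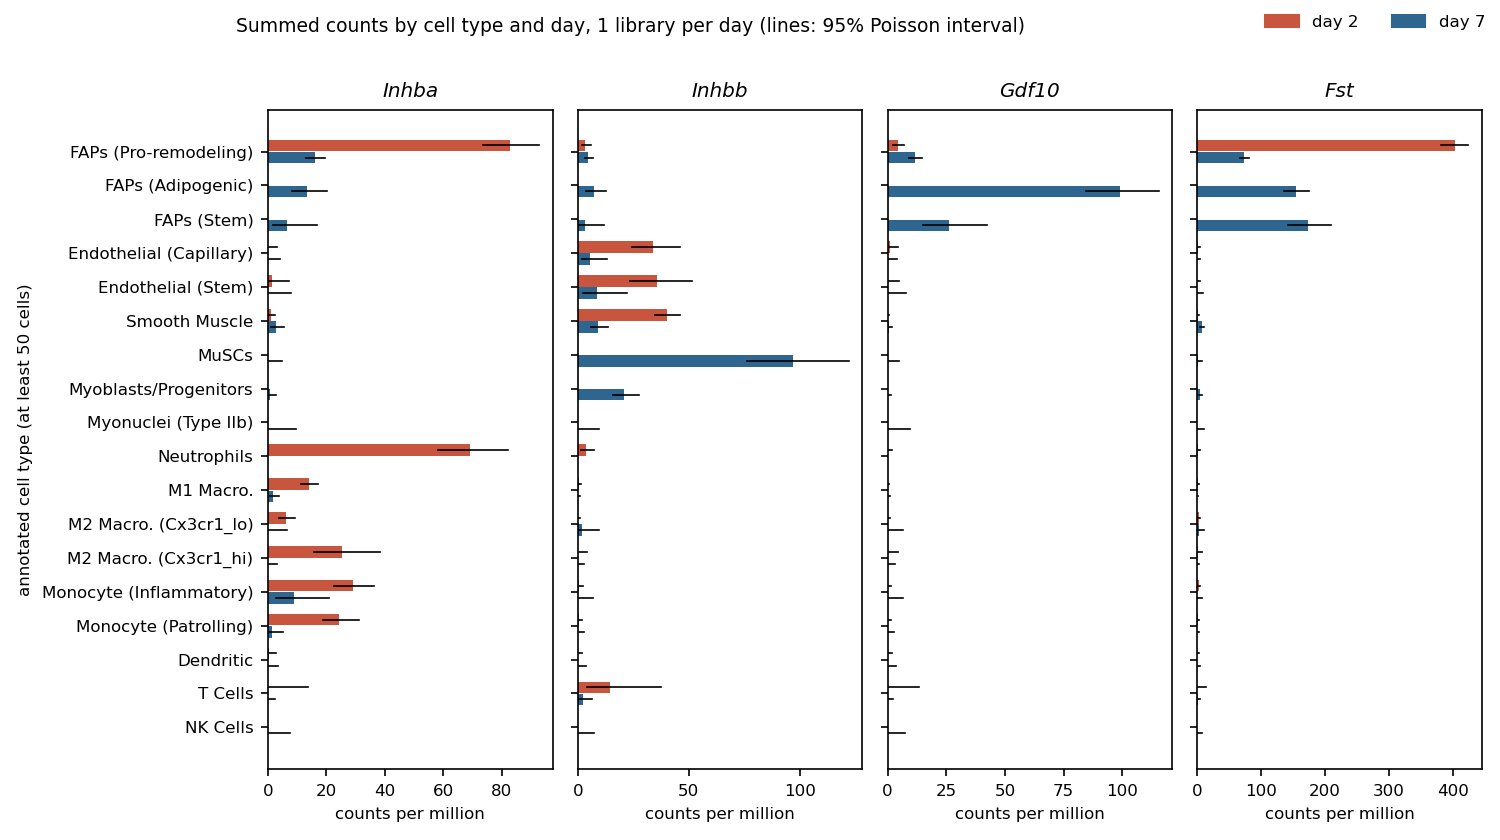
Horizontal bars give the level (CPM) of Inhba, Inhbb, Gdf10 and Fst in each annotated cell type with at least 50 kept cells, at day 2 (red) and day 7 (blue). Black lines are exact 95% Poisson intervals, and a missing bar without a line means fewer than 50 cells on that day. Inhba stood highest in pro-remodeling FAPs (82.7) and neutrophils (69.3) at day 2, Inhbb in muscle stem cells at day 7 (97.2), Gdf10 in adipogenic FAPs at day 7 (99.0) and Fst in pro-remodeling FAPs at day 2 (403).

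**Figure D2:**
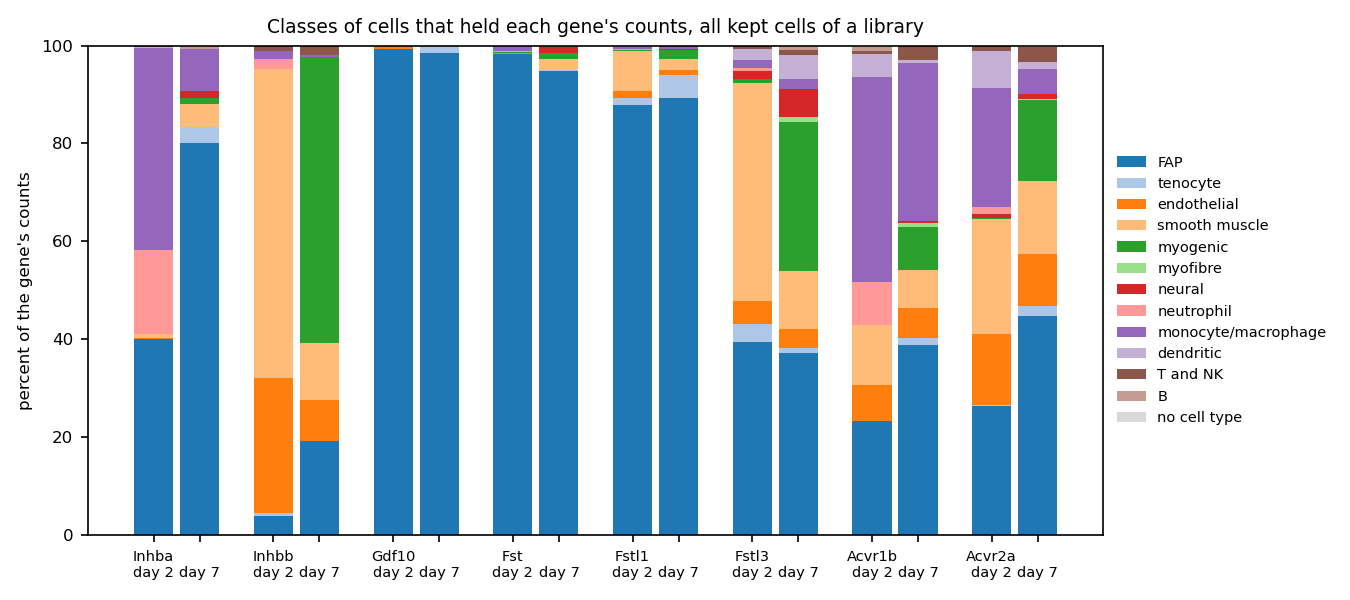
Stacked bars give the percent of each gene's counts over all kept cells that lay in each class of cells, at day 2 and day 7. FAPs held 39.9% of Inhba counts at day 2 and 80.0% at day 7, while for Inhbb the smooth muscle class held 63.0% at day 2 and the myogenic class 58.4% at day 7.

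Between the days, a gene was counted as higher or lower when its CPM differed at least 2-fold, among genes with at least 20 counts over both libraries in the class. In FAPs (215 cells at day 2, 805 at day 7) 8 members could be compared: 1 was higher at day 7 (Fstl1), where 25.6% of all genes were higher, and 3 were lower (Inhba, Fst and Fstl3), where 14% of all genes were lower. In endothelial cells 4 could be compared, with 1 higher (Fstl1, against 14.9% of all genes) and 1 lower (Inhbb, against 9.5% of all genes). In the smooth muscle class 6 could be compared, with 2 higher (Fst and Fstl1, against 14.1% of all genes) and 2 lower (Inhbb and Fstl3, against 7.86% of all genes).
In monocytes and macrophages 5 could be compared, with 1 higher (Fstl1, against 19.3% of all genes) and 2 lower (Inhba and Fst, against 12.8% of all genes). Neither the 1 member compared in dendritic cells (Acvr2a) nor the 2 compared in T and NK cells (Fstl1 and Acvr2a) passed 2-fold. Of all genes 13.6% were higher and 8.44% lower in dendritic cells, and 9.98% and 8.22% in T and NK cells. The median log2 ratio of day 7 to day 2 in FAPs was -0.06 over the 8 members and 0.21 over all genes compared. These counts are too small to be read as a property of the family.

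**Figure D3:**
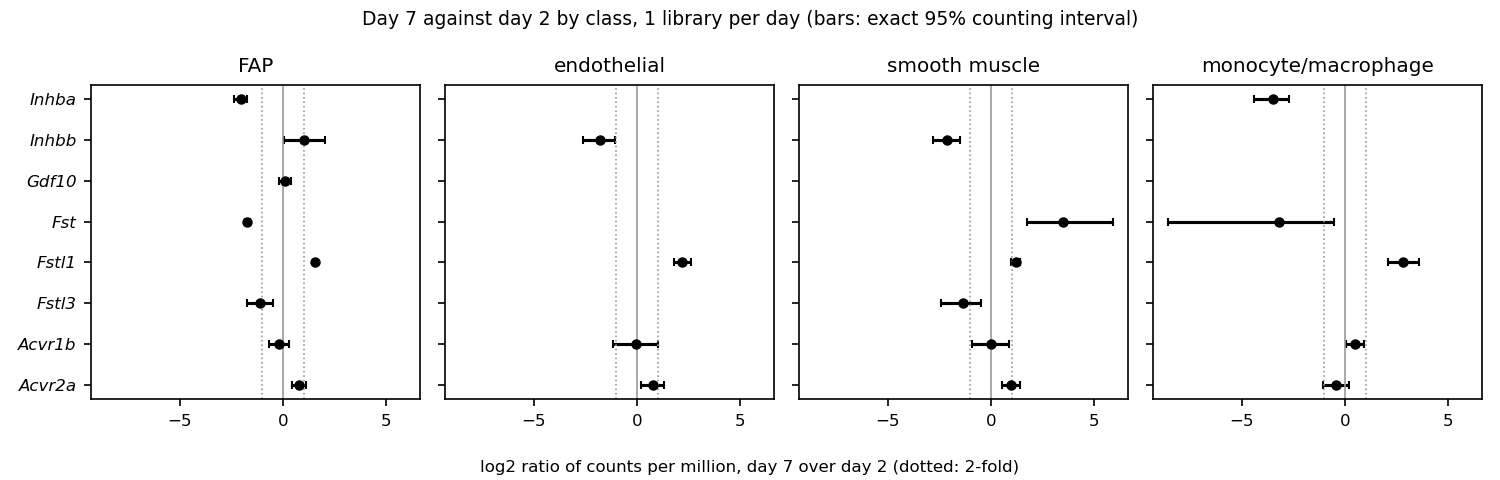
Points give the log2 ratio of CPM at day 7 over day 2 for each member with at least 20 counts in the class and counts on both days, with exact 95% counting intervals. Dotted lines mark 2-fold. Fstl1 lies to the right in all 4 classes, Inhba to the left in FAPs (-2.05) and in monocytes and macrophages (-3.50), and Inhbb to the left in the endothelial (-1.79) and smooth muscle (-2.13) classes.

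Inhba, whose product forms activin A, was higher at day 2 than at day 7. Over all kept cells its level was 22.8 CPM at day 2 (781 counts) and 5.42 at day 7 (150 counts), 4.22-fold lower. Pro-remodeling FAPs went from 82.7 (95% interval 73.4 to 92.8, from 290 counts in 138 cells) to 16.0 (12.9 to 19.5, from 94 counts in 495 cells), a log2 ratio of -2.37 (-2.72 to -2.03). The FAP types differed at day 2, with pro-remodeling FAPs 7.50-fold above stem FAPs (11.03 CPM, 14 counts) and 3.68-fold above adipogenic FAPs (22.5 CPM, 8 counts in 30 cells). At day 7 the levels of 16.0, 13.4 and 6.52 CPM in pro-remodeling, adipogenic and stem FAPs no longer stood apart beyond their intervals.

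Monocytes and macrophages held 41.2% and neutrophils 17.3% of the Inhba counts at day 2. Neutrophils stood at 69.3 CPM (58.1 to 82.0), which did not stand apart from pro-remodeling FAPs (log2 ratio 0.25, -0.05 to 0.56). Those 135 counts were unevenly spread: 45 of 708 neutrophils held any, and the 5 highest cells held 41.5% of them. Under stricter limits, which kept cells of at least 1500 genes and at most 15% mitochondrial counts, the level was 41.6 CPM. In the same cells neutrophil markers summed to 30538 CPM and monocyte and macrophage markers to 2580 CPM. With at least 2 counts of a list taken as its presence, 454 of the 708 barcodes carried both lists and had Inhba at 45.9 CPM (35.2 to 58.8), and 232 carried neutrophil markers only and had it at 92.2 CPM (68.2 to 122). The 18 that had only monocyte and macrophage markers had it at 408 CPM (23 counts).
Only 10 neutrophils were annotated at day 7, too few for a level. Monocytes and macrophages together went from 19.5 CPM (322 counts in 1292 cells) to 1.73 (13 counts in 757 cells), a log2 ratio of -3.50 (-4.42 to -2.70), or -4.19 as a mean over cells. Every one of their types with counts on both days was lower at day 7: M1 macrophages went from 14.0 to 1.80 CPM, inflammatory monocytes from 29.0 to 8.98 and patrolling monocytes from 24.5 to 1.397. Cxcl10-positive monocytes (38 and 45 cells) had 45 counts at day 2, or 114 CPM, and none at day 7. This was 14.7-fold lower with the day 7 count raised to the floor of 3. The level of 25.4 CPM in M2 macrophages with high Cx3cr1 at day 2 rested on a single cell that held 21 of the 22 counts. Without that cell it was 1.17 CPM.

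Cells thinned to 2000 counts gave the share of cells with an Inhba UMI at equal depth. It was 10.1% in pro-remodeling FAPs (14 of 138 cells; 5.66 to 16.4%) and 5.21% in neutrophils (28 of 537; 3.49 to 7.45%) at day 2, against 0 of 155 capillary endothelial cells (up to 2.35%). At their own depths, medians of 26218, 2351 and 6992 counts, the shares were 35.5%, 6.36% and 0%. Empty barcodes held Inhba at 5.89 CPM at day 2 and 2.21 at day 7, below the FAP levels on both days.

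Inhbb, the second activin subunit gene, followed a different map. At day 2 the smooth muscle type stood at 40.3 CPM (35.0 to 46.2, from 206 counts in 304 cells), stem endothelial cells at 35.5 (28 counts) and capillary endothelial cells at 33.97 (42 counts), and these neighbours did not differ beyond their intervals. The 15 arterial endothelial cells had 118 CPM (66.3 to 195), 3.48-fold above capillary cells. At day 7 all 4 types were lower: 9.23 CPM in smooth muscle (25 counts), 8.60 in stem endothelial cells (4 counts), 5.63 in capillary cells (5 counts) and 47.9 in 26 arterial cells (8 counts). For smooth muscle the log2 ratio was -2.13 (-2.79 to -1.53), or -2.92 as a mean over cells and -2.88 in thinned cells (20 and 2 counts). For capillary cells it was -2.59 (-4.29 to -1.26), while the interval for arterial cells (-2.75 to 0.02) included no change.

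The smooth muscle type did not hold mural cells alone. Endothelial markers summed to 3700 CPM in it at day 2 and 5083 at day 7, beside 2589 and 4847 CPM of smooth muscle and pericyte markers. Inhbb was 42.1 CPM in the 201 barcodes with at least 2 counts of both lists and 36.8 CPM in the 86 with endothelial markers only. The 17 barcodes with mural markers only held no Inhbb count, but they carried so few counts in all that a level of up to 44.4 CPM was allowed. Barcodes with both lists and with endothelial markers only held 4018502 and 1006038 counts of all genes, against 83155 with mural markers only. Of the Inhbb counts, 169 lay in barcodes with both lists. Whether endothelial or mural cells of this label held Inhbb cannot be told from this division.

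At day 7 the highest Inhbb level lay in muscle stem cells (MuSCs), the satellite cells that rebuild the fibres. They stood at 97.2 CPM (76.2 to 122, from 73 counts in 137 cells) and myoblasts and progenitors, the next in order, at 21.0 CPM (15.7 to 27.5, from 52 counts in 175 cells), a 4.63-fold difference (log2 2.21, 1.68 to 2.75). FAP markers summed to 2306 CPM in these MuSCs (10614 in empty barcodes) and myogenic markers to 1826 CPM, while the Inhbb level in FAPs was 5.03 CPM. In thinned cells, 19.7% of MuSCs (26 of 132; 13.3 to 27.5%) held an Inhbb UMI, against 0 of 228 M1 macrophages (up to 1.60%). At their own median depths of 4787 and 12528 counts the shares were 36.5% and 0%. The 21 MuSCs of day 2 held no Inhbb count, with erythroid markers at 22770 CPM in them, so no ratio between the days is given. FAPs stayed low, at 2.53 CPM at day 2 and 5.03 at day 7, just inside the 2-fold limit (1.99-fold). SoupX values were 2.48 and 5.06 CPM, just past it (log2 1.03). In thinned cells the log2 ratio was 0.12, and empty barcodes held 3.60 and 3.83 CPM.

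Mstn was hardly seen. No count was found among 41123913 at day 2. At day 7 the called barcodes held 4 counts, of which 2 lay in 1 of 76 type IIb myonuclei (5.28 CPM, 0.64 to 19.1) and 1 in a capillary endothelial cell, while empty barcodes held 5. The myofibre class made up 0.19% of kept cells at day 2 and 2.98% at day 7. A change in Mstn was not detectable in these libraries, and whether few fibres or depth limited it was not tested.

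Gdf10, a ligand known for its expression in FAPs, differed in direction among the FAP types. Over all FAPs it was 28.2 CPM at day 2 (145 counts) and 30.3 at day 7 (247 counts), a log2 ratio of 0.10 (-0.20 to 0.41). It was -0.37 as a mean over cells and -0.82 in cells thinned to 2000 counts (22 and 46 counts). By type, adipogenic FAPs had 345 CPM at day 2 (287 to 412, from 123 counts in 30 cells) and 99.0 at day 7 (84.4 to 115, from 163 counts in 232 cells). Pro-remodeling FAPs had 4.28 and 11.5 CPM and stem FAPs 5.51 and 26.1 CPM, log2 ratios of 1.43 (0.61 to 2.35) and 2.24 (0.88 to 3.77) against -1.80 (-2.15 to -1.45) in adipogenic FAPs. The lead of adipogenic over pro-remodeling FAPs was 80.8-fold at day 2 and 8.57-fold at day 7. Only 15 and 7 counts stood behind the day 2 values of pro-remodeling and stem FAPs.

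Few cells carried the Gdf10 counts. The 5 highest adipogenic FAPs held 85.4% of them at day 2 and 49.1% at day 7, and leaving out the single highest cell lowered the day 2 level from 345 to 266 CPM and the day 7 level from 99.0 to 77.9. Neutrophil markers summed to 904 CPM in the 30 adipogenic FAPs of day 2, close to the 984 CPM of empty barcodes, and their FAP markers to 13437 CPM. Of the Gdf10 counts in kept cells, FAPs held 99.3% at day 2 and 98.4% at day 7. Another 100 and 6 counts lay in barcodes that met the limits but had no annotation (17.5 and 1.85 CPM), and the level in empty barcodes was 3.27 and 6.24 CPM.

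Fst, the gene of follistatin, changed its order among the FAP types between the days. At day 2 pro-remodeling FAPs led with 403 CPM (382 to 425, from 1414 counts in 138 cells), 2.94-fold above stem FAPs (137 CPM) and 2.76-fold above adipogenic FAPs (146 CPM). At day 7 they stood lowest of the 3 with 72.8 CPM (66.1 to 80.1, from 429 counts in 495 cells), while stem FAPs had 173 (142 to 209) and adipogenic FAPs 154 (136 to 174), 2.37-fold and 2.12-fold higher. The day 7 to day 2 log2 ratio was -2.47 (-2.63 to -2.31) in pro-remodeling FAPs, 0.08 (-0.36 to 0.54) in adipogenic FAPs and 0.34 (-0.03 to 0.69) in stem FAPs. The FAP sum went from 319 to 96.8 CPM. In cells thinned to 2000 counts the log2 ratio of stem FAPs was 1.18, from 9 and 32 counts.

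**Figure D4:**
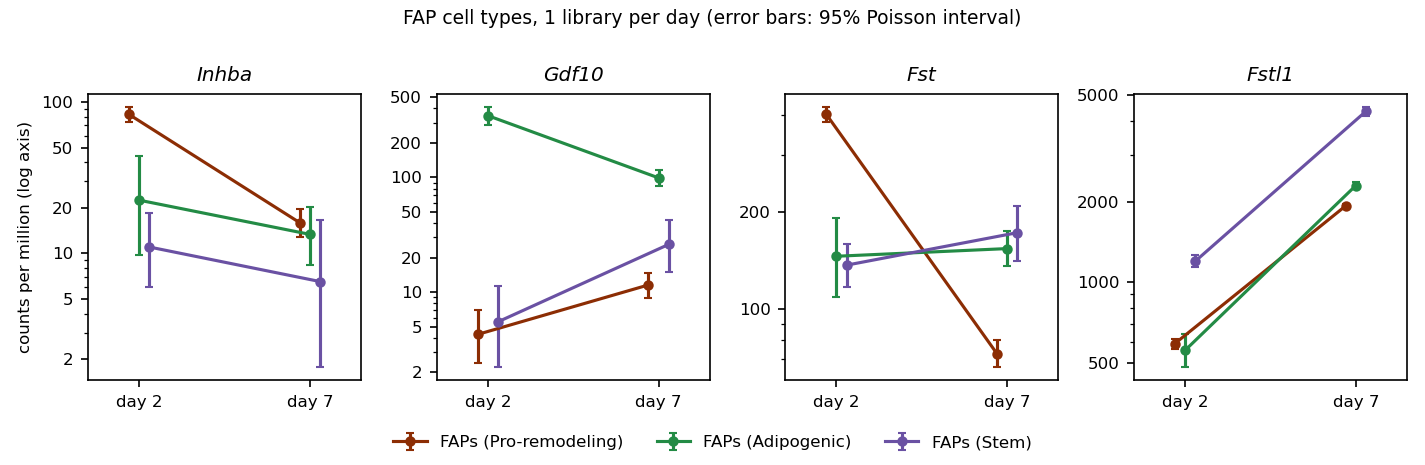
Points give the level (CPM, log axis, a separate scale in each panel) of Inhba, Gdf10, Fst and Fstl1 in pro-remodeling, adipogenic and stem FAPs at day 2 and day 7, with exact 95% Poisson intervals. Fst lines cross because pro-remodeling FAPs went from 403 to 72.8 CPM, Gdf10 was lower at day 7 in adipogenic FAPs and higher in the others, and Fstl1 was higher at day 7 in all 3 types.

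At equal depth the share of cells with a Fst UMI followed the level in pro-remodeling FAPs but not in stem FAPs. In thinned cells a Fst UMI was found in 44.9% of pro-remodeling FAPs at day 2 (62 of 138; 36.5 to 53.6%) and in 11.7% at day 7 (58 of 495; 9.02 to 14.9%). Stem FAPs had 12.8% at day 2 (6 of 47) and 35.1% at day 7 (26 of 74), though the interval of their level ratio included no change. Neutrophils, which should lack the gene, had 2 of 537 (0.372%) at day 2. Without thinning, at median depths of 26218 and 10156 counts in pro-remodeling FAPs and 2351 in neutrophils, the shares were 91.3%, 34.5% and 0.424%.

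Beyond FAPs, Fst levels in types with at least 50 cells lay below those of empty barcodes, which held 23.9 CPM at day 2 and 14.1 at day 7. The smooth muscle type had 3 counts at day 2 (0.59 CPM) and 18 at day 7 (6.64 CPM), with 77.8% of the latter in 5 cells. Monocytes and macrophages had 20 counts at day 2 (1.21 CPM) and 1 at day 7. SoupX values were 0.038 and 6.06 CPM in the smooth muscle type and 0.59 and 0 CPM in monocytes and macrophages, too few counts for a call in either. Neural cells at day 7 had 46.6 CPM, from 10 counts in 3 of 41 cells.

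Fstl1, the follistatin-like gene of mesenchymal cells, was at least 2-fold higher at day 7 in every class where it could be compared except T and NK cells, though in monocytes and macrophages SoupX values left too few counts for a call (0.29 and 1.94 CPM). In T and NK cells it was 1.91-fold higher from 6 counts at day 2, with a log2 ratio of 0.94, or 2.51 as a mean over cells. All 6 lay in the 50 T cells of day 2, whose basophil and mast cell markers summed to 2599 CPM and T cell markers to 371 CPM, and their Fstl1 levels (22.0 and 39.4 CPM) lay below those of empty barcodes on both days. FAPs went from 738 CPM (714 to 761) to 2186 (2154 to 2218), 2.96-fold. Stem FAPs led on both days, at 1198 and 4359 CPM, 2.03-fold and 2.26-fold above pro-remodeling FAPs (589 and 1928 CPM). Adipogenic FAPs went from 556 to 2298 CPM. Tenocytes, the tendon cells, had 348 CPM at day 2 (16 cells) and 2084 at day 7 (48 cells), 5.98-fold higher. In thinned pro-remodeling FAPs the share with an Fstl1 UMI was 64.5% and 96.4%, against 0.214% and 1.32% of M1 macrophages.

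Free RNA of Fstl1 was also higher at day 7. Empty barcodes held it at 46.5 CPM at day 2 and 282 at day 7, against 28.5 and 129 CPM in endothelial cells. The smooth muscle type had 68.7 CPM at day 2 and 156 at day 7. Its barcodes with mural markers only (17 and 35) had 277 CPM (175 to 415) and 348 CPM (260 to 457), intervals that overlapped between the days. Barcodes with endothelial markers only had 25.8 and 143 CPM, and those with both lists 75.2 and 146 CPM. Monocytes and macrophages had 1.27 and 8.78 CPM, with a log2 ratio of 2.78, or 3.39 as a mean over cells and 5.17 in thinned cells (1 and 21 counts). SoupX lowered the day 7 level of M1 macrophages from 5.99 to 0.59 CPM. With SoupX values Fstl1 was 28.2 and 127 CPM in endothelial cells and 69.2 and 151 CPM in the smooth muscle type, still more than 2-fold higher. The part of free RNA in the ratios outside FAPs and tenocytes was not tested further.

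Fstl3, a follistatin relative that binds activins and myostatin, was low in the types with at least 50 cells. Of the smaller types, tenocytes had 31.7 CPM at day 2 (5 counts in 16 cells) and neural cells 30.4 and 28.0 CPM (2 and 6 counts in 9 and 41 cells). At day 2 it was 10.1 CPM in FAPs (52 counts) and 11.6 CPM in smooth muscle (59 counts), and at day 7 4.66 CPM (38 counts) and 4.43 CPM (12 counts). Within the smooth muscle label at day 2, barcodes with mural markers only had 60.1 CPM (19.5 to 140, from 5 counts), those with both lists 12.4 CPM and those with endothelial markers only 3.98 CPM. The log2 ratios of FAPs and smooth muscle were -1.12 (-1.76 to -0.49) and -1.38 (-2.41 to -0.47). In FAPs thinned to 2000 counts only 2 and 8 counts of Fstl3 were left, and the ratio was 0.12, so the direction in FAPs was not kept at equal depth. At day 7 myogenic cells had 9.60 CPM (31 counts), with MuSCs (10.6) and myoblasts (9.28) not apart from each other.

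The receptor genes were spread over nearly all types. Acvr1b stood at 8.19 CPM over all cells at day 2 (280 counts) and 8.27 at day 7 (229 counts), a log2 ratio of 0.01 (-0.24 to 0.27). Its levels lay between 5.76 and 15.7 CPM in the 12 types with at least 50 cells at day 2, with no pair of neighbours in that order apart. M2 macrophages with high Cx3cr1 went from 5.76 CPM (5 counts) to 19.6 (24 counts), a log2 ratio of 1.76 (0.34 to 3.51), and at day 7 they stood 2.51-fold above M1 macrophages (log2 1.33, 0.47 to 2.19). Empty barcodes held Acvr1b at 4.58 and 7.45 CPM.

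Acvr2a was 10.9 CPM over all cells at day 2 (372 counts) and 21.3 at day 7 (591 counts), a log2 ratio of 0.97 (0.78 to 1.16). By class the log2 ratio was 0.76 (0.42 to 1.11) in FAPs, 0.75 (0.21 to 1.31) in endothelial cells and 0.95 (0.50 to 1.39) in smooth muscle, against -0.42 (-1.06 to 0.18) in monocytes and macrophages. Neutrophils, with 2.57 CPM, made up 22.1% of cells at day 2 and 0.31% at day 7, and monocytes and macrophages, with 5.52 and 4.12 CPM, 40.3% and 23.5%. In smooth muscle the sign turned to -0.26 in cells thinned to 2000 counts, where 13 and 8 counts were left. MuSCs had the highest level at day 7, 63.9 CPM (47.1 to 84.7), 3.23-fold above myoblasts and progenitors (19.8 CPM, log2 1.69, 1.09 to 2.30), but did not stand apart from the next type, adipogenic FAPs at 44.3 CPM (log2 0.53, -0.03 to 1.07). Inflammatory monocytes at day 2 (10.3 CPM) were 2.33-fold above M1 macrophages (4.43 CPM). Empty barcodes held 4.58 CPM at day 2 and 11.3 at day 7, above the day 7 level of every immune type with at least 50 cells except NK cells (12.2 CPM).

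Of 33 other genes of the pathway, 22 could be compared in FAPs, of which 8 were higher and 3 lower at day 7, beside the 25.6% and 14% of all genes. The lower ones were Smad7, which blocks type I receptors, with 247 CPM at day 2 and 55.8 at day 7 (log2 -2.15, -2.30 to -1.99), Bambi, a decoy receptor, and Gdf15, a stress-induced ligand. Among 5 proteases that mature such ligands 3 were higher, Bmp1 (117 and 375 CPM), which frees myostatin from its propeptide, Pcsk5 (10.5 and 45.5 CPM) and Pcsk6 (28.6 and 124 CPM). Of 4 binding proteins and modulators compared, 3 were higher and 1 lower. Dcn, decorin, had 5999.6 and 15118 CPM, and Ltbp3, a latency protein, 28.4 and 209 CPM. Fmod, fibromodulin, had no count and then 113 counts, a log2 ratio of 4.57 with the day 2 count raised to the floor of 3. The exact lower limit of the ratio was 4.25. At day 7 Fmod had 13.9 CPM, against 30.6 CPM in empty barcodes. Bambi was the lower one, with 31.6 and 9.69 CPM (log2 -1.70), against 21.0 and 21.7 CPM in empty barcodes. None of the 4 receptors compared passed 2-fold in FAPs.

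The distant family member Gdf15 moved in opposite directions by class. In endothelial cells it was 163 CPM at day 2 (395 counts) and 5.36 at day 7 (9 counts), against 32.7 and 139 CPM in empty barcodes, a log2 ratio of -4.92 (-6.06 to -3.98). In monocytes and macrophages it went from 34.5 to 384 CPM, with a log2 ratio of 3.48 (3.35 to 3.61). FAPs had 11.7 and 5.15 CPM.
In endothelial cells 14 of the 33 could be compared, with 2 higher and 2 lower, beside 14.9% and 9.5% of all genes. Besides Gdf15 these were the receptors Tgfbr1 (62.7 and 25.6 CPM, against 27.8 and 40.5 in empty barcodes) and Tgfbr3 (36.3 and 88.2 CPM, against 19.6 and 31.6), and Dcn (17.3 and 48.3 CPM, against 443 and 2044), whose call was lost with SoupX values (0.24 and 0 CPM). In monocytes and macrophages 15 could be compared, with 5 higher and 1 lower, beside 19.3% and 12.8% of all genes. Tgfbr1 went from 38.4 to 137 CPM. Ltbp3 went from 1.88 to 30.3 CPM, or from 1.80 to 29.1 CPM with SoupX values. Dcn was higher in the counts (11.7 and 43.9 CPM) and had 0.099 and 1.86 CPM with SoupX values, too few for a call, and the same held for Bmp1 (0.67 and 3.99 CPM, or 0.30 and 0.91 with SoupX values), so 3 of the 5 stayed called. Smad3, the lower one, went from 19.1 to 9.44 CPM. The smooth muscle class had 4 higher and 1 lower of 16 (14.1% and 7.86% of all genes). With SoupX values Dcn turned from higher to lower (4.84 and 0.67 CPM) and Ltbp3 fell within 2-fold (4.73 and 7.44 CPM). Dendritic cells had 3 higher and 0 lower of 9 (13.6% and 8.44%), and T and NK cells 2 higher and 2 lower of 13 (9.98% and 8.22%). The higher ones included Dcn in both, with too few counts for a call in SoupX values. These were 0 and 0.49 CPM in dendritic cells and 13.3 and 5.19 CPM in T and NK cells.

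The genes with patterns most like each member were found by Pearson's r of log2(CPM + 10) over the 29 sums, among 11085 genes. The sums share libraries and depth, so these are descriptions. For Inhba they were Saa3 (0.85), an acute-phase protein gene, Cxcl3 (0.77), a neutrophil chemokine, and Ptgs2 (0.76), cyclooxygenase 2. For Fst they were Has1 (0.98), Lgi2 (0.98) and Has2 (0.98), of which Has1 and Has2 encode hyaluronan synthases, and for Gdf10 Barx2, Chl1 and Inmt (0.98, 0.98 and 0.97). Fstl1 was closest to Bmp1, Dsel and Pcolce (0.98, 0.98 and 0.97), of which Bmp1 and Pcolce act in collagen processing. Inhbb was closest to Chrnb1 (0.92), an acetylcholine receptor subunit, Mettl2 and Epb41l5 (both 0.88), and Acvr2a to Zhx3, Cdc27 and 2700081O15Rik (0.91, 0.90 and 0.90). For Fstl3 they were Ank3 (0.84), Rem1 and Armcx2 (both 0.81). The closest genes were least alike for Acvr1b (Plau at 0.68, Creb5 at 0.66, Ckap4 at 0.65).

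Inhba and Fst were also counted within single cells. Among FAPs thinned to 2000 counts, 15 of 213 at day 2 held Inhba and 7 of these 15 (46.7%, 21.3 to 73.4%) also held Fst, against 34.3% of FAPs without an Inhba UMI. Of the 15, 14 were pro-remodeling FAPs, and within that type the shares were 50% (23.0 to 77.0%) and 44.4%. At day 7, 1 of 21 Inhba-positive FAPs (4.76%, 0.12 to 23.8%) held Fst, against 16.2% of the others, and within pro-remodeling FAPs 1 of 18 (5.56%) against 11.9%. No FAP held both Gdf10 and Inhba on either day, among 8 and 32 Gdf10-positive cells, which allows up to 36.9% and 10.9%. Of the FAPs without a Gdf10 UMI, 7.32% and 2.79% held Inhba, inside those limits, so no avoidance between the genes is shown.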

How the data were processed

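The data were 2 libraries of the 10x v3 3' kit. The authors deposited UMI counts per gene and barcode, raw and filtered (Cell Ranger 3.1.0 per the submitters' processing notes, 3.0.1 in the file headers, mm10), and a table naming each cell's type. The authors also deposited a table in which each estimated count was made with SoupX by removing free RNA. Per the study's methods, doublets were removed with DoubletFinder before annotation, and none were called here. Filtered counts were used. Of 4836 and 4889 called barcodes at day 2 and day 7, 3537 and 3416 were in the annotation table, and 3208 and 3221 kept after the limits of 750 genes, 1000 transcripts and 30% mitochondrial counts; 4 called barcodes occurred in both libraries. Kept cells held 34196070 and 27699525 counts. The annotation's 25 types were grouped into 12 classes. Counts were summed per type and day. Intervals are exact (Poisson for CPM, Clopper-Pearson for shares, conditional binomial for ratios) at 95%, with a floor of 3 counts per library in a class; no test was made. Cells were thinned to 2000 counts for shares, which left out 204 and 123. Empty barcodes were those with 1 to 100 counts. Named were all 9 members in types of at least 50 cells (smaller types with their cell number), other pathway genes past 2-fold with at least 100 counts in FAPs, endothelial cells or monocytes and macrophages, and the 3 genes most like each member with at least 200 counts. The members and all lists were chosen with earlier results of these data known, and the division of types by markers and the removal of the highest cell were added after seeing the data. Intervals and calls were run on simulated independent Poisson counts. These hold neither the clustering of counts in cells nor the spread between mice, so that run does not bear on either. Python 3.11.15, numpy 2.4.6, scipy 1.17.1 and pandas 2.3.3 were used. Alternatives were SoupX values, means over cells, other cell limits, median-of-ratios scaling, other count minimums, a 4-fold limit and thinning.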

Additional observations from a re-analysis of the deposited data

Results flagged for a closer look

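Gdf10 moved in opposite directions among the FAP types. Log2 ratios of day 7 to day 2 were -1.80 in adipogenic FAPs, 1.43 in pro-remodeling FAPs and 2.24 in stem FAPs. Each interval was without 0 but covers counting error only, not the clustering of counts in single cells. At day 2 a few cells carried most of the 123 adipogenic counts, and pro-remodeling and stem FAPs had 15 and 7 counts. The difference between the types was not tested, since each day has 1 library.

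Fst was lower at day 7 in FAPs (-1.72) and in monocytes and macrophages (-3.19, or -1.60 with the day 7 count raised to the floor of 3) and higher in the smooth muscle class (3.50). This difference was not tested either, and the values of the last 2 classes rest on 20 and 1 counts and on 3 and 18 counts. In monocytes and macrophages the ratio was 0.78 in thinned cells, from 1 count on each day, and the call was lost in both classes with SoupX values.

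Called barcodes that met the limits but were not in the annotation table, 680 at day 2 and 477 at day 7, entered no comparison and held counts of 8 members above the limit of 3 counts. At day 2 they had 24.3 CPM of Inhba, 7.52 of Inhbb, 17.5 of Gdf10, 61.4 of Fst, 176 of Fstl1, 13.1 of Fstl3, 7.34 of Acvr1b and 12.2 of Acvr2a. At day 7 they had 3.71 CPM of Inhba, 5.87 of Inhbb, 1.85 of Gdf10, 11.7 of Fst, 236 of Fstl1, 8.34 of Fstl3, 9.27 of Acvr1b and 17.6 of Acvr2a.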

How the results depend on the processing

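No paired analysis was possible because each day has 1 library. Another annotation column was not run, as the table used holds 1. In FAPs (1 member higher, 3 lower) a 4-fold limit gave 0 higher and 1 lower, and SoupX values or stricter limits on cells gave 2 higher. In endothelial cells the 4-fold limit gave 0 lower. In smooth muscle (2 and 2) at least 100 counts or the 4-fold limit gave 1 higher and 1 lower, and SoupX values or stricter limits gave 1 higher. In monocytes and macrophages (1 and 2) at least 100 counts or SoupX values gave 0 higher and 1 lower, at least 3 counts gave 2 higher, and the 4-fold limit 1 lower. At least 3 counts gave 2 higher and 1 lower in dendritic cells and 2 lower in T and NK cells, where means over cells gave 1 higher. Of the other pathway genes, SoupX values left 1 higher in endothelial cells and 3 higher in monocytes and macrophages. In smooth muscle they moved Dcn from higher to lower and Ltbp3 to within 2-fold. In dendritic cells and in T and NK cells they left too few Dcn counts for a call.

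Of 302 recomputed ratios of single members, 265 lay within the main interval, 33 outside it in the same direction or from an interval that held 0, and 4 reversed. All 4 came from cells thinned to 2000 counts: Fstl3 in FAPs (0.12) and in pro-remodeling FAPs (0.48), Acvr2a in smooth muscle (-0.26) and Fst in monocytes and macrophages (0.78, from 1 count on each day). The thinned sums of Fstl3 held 2 and 8 counts in FAPs. Leaving out the highest cell kept all 43 ratios it could be run on within their intervals and moved 4 of 12 levels. Neutrophil Inhba was 41.6 CPM under stricter limits on cells. Gdf10 in all FAPs was -0.37 as a mean over cells and -0.82 in thinned cells, and Fst in smooth muscle 7.30 with SoupX values and 1.35 under stricter limits. The cause of these moves was not tested. Mstn, with 4 counts in all called barcodes, had too few counts for a comparison, and the cause was not tested.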
